A study of Saccharomyces cerevisiae with 4 samples.

Results

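The genes described are 10 glucose-repressed genes of Saccharomyces cerevisiae that let the cell grow on ethanol, acetate or lactate: the enzyme genes FBP1, PCK1, MDH2, ICL1, MLS1, ADH2 and ACS1, the transporter gene JEN1, and the activator genes CAT8 and SIP4. They were chosen by name, as the core of gluconeogenesis and the glyoxylate cycle with their uptake and control, and all 10 were among the 5449 genes tested. Each had a single probe set on the array. Wild-type BY4741, a laboratory strain with a single set of chromosomes and the a mating type, was grown in YPD, a rich glucose medium. Honokiol, a biphenolic compound of magnolia bark, was added at 12 µg/mL for 2 h in one group (2 arrays), and an equal volume of ethanol in the control group (2 arrays, 0 µg/mL honokiol). Each of the 4 samples is labelled with an age of 8 h, and the replicates are called biological.

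Glycolysis has irreversible steps that the cell must go around when it makes glucose phosphate from smaller compounds. PCK1 and FBP1 encode the enzymes of these detours, and the glyoxylate cycle, through ICL1 and MLS1, turns units of acetyl-CoA into malate and succinate without losing their carbon as CO2. In glucose medium the genes are repressed; when glucose runs out, the kinase Snf1 acts on the repressor Mig1 and on the activators Cat8, Sip4 and Adr1, and the genes are switched on. When glucose returns, the GID ubiquitin ligase marks several of the enzymes for destruction, a step that transcript levels do not show. Ethanol itself is a substrate of the pathway. The control cultures received an equal volume of it, and the sample titles do not say whether the honokiol was given in ethanol. A part of ethanol in the results was not tested.

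Values are log2 of the deposited RMA intensities. A gene is said to have risen or fallen where limma's adjusted p over all 5449 genes was under 0.05. Over the tested genes the correlation of the replicates was 0.998 in the honokiol group and 0.995 in the ethanol group, and that between groups was 0.959 to 0.970. Ethanol array 2 stood somewhat apart: the mean log2 ratio of the 5′ to the 3′ probe sets of 7 control transcripts, a sign of RNA or labelling quality, was -1.18 and -1.22 with honokiol and -1.31 and -1.67 with ethanol. For the strain, MFA1, MFA2, STE2, BAR1 and AGA2, genes of a cells, lay between 10.73 and 13.52. With honokiol 4 of the 5 fell, where 25% of all genes fell. Their summed intensity was 24905 and 24272 with honokiol and 37635 and 35380 with ethanol. Among 4 genes of alpha cells, MF(ALPHA)1 was below the background level of 4.37 in both groups, STE3, MF(ALPHA)2 and SAG1 were above it, and STE3 rose. The summed intensity of these 4 was 943 and 954 with honokiol and 861 and 757 with ethanol. The part of these differences in the results below was not tested. URA3, deleted in BY4741, was at 2.73 and 3.10 with honokiol and at 2.73 and 2.75 with ethanol. LEU2 and MET17, also deleted, were at 4.28 to 4.56 on the 4 arrays. Their group means lay just above the background level, so a value just above it does not show that a transcript is present. HIS3, whose allele in this strain lacks an internal stretch only, gave 10.70 to 11.05 and checks nothing.

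The 10 genes did not move as a block with honokiol. PCK1 rose 2.44-fold and ICL1 1.38-fold, MDH2 and CAT8 fell to 0.69 and 0.58 of the ethanol level, and the other 6 did not pass the test. Over all genes tested 48.9% passed, 23.9% higher and 25% lower, so 4 of 10 is near the share of the whole genome. The median log2 fold change (honokiol over ethanol) was 0.13 over the 10 genes and 0.01 over all genes tested. The honokiol and ethanol arrays did not overlap for 5 of the 10 genes (PCK1, MDH2, ICL1, ACS1 and CAT8), against 80.2% of all genes.

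**Figure D1:**
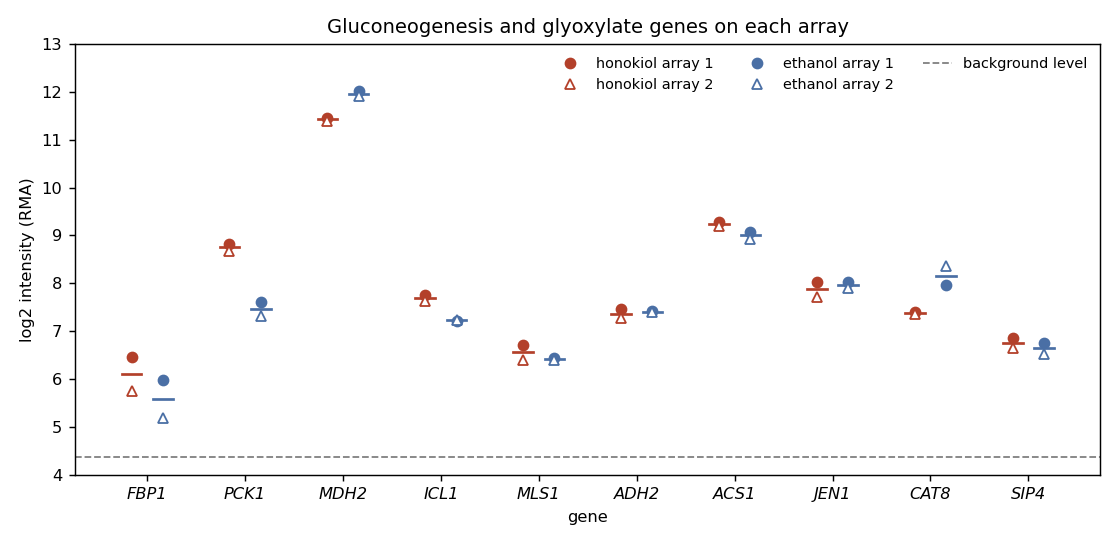
Log2 RMA intensity (vertical axis) of the 10 genes on each of the 4 arrays, honokiol in red on the left and ethanol in blue on the right of each pair. Circles are replicate 1, open triangles replicate 2, short bars the group means, and the dashed line is the background level of 4.37. PCK1 and ICL1 lie higher on both honokiol arrays, MDH2 and CAT8 lower, and FBP1 has the widest spread within each group.

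PCK1 encodes phosphoenolpyruvate carboxykinase, which makes phosphoenolpyruvate from oxaloacetate and so opens gluconeogenesis. Log2 intensity was 8.82 and 8.68 on the honokiol arrays, against 7.60 and 7.32 on the ethanol arrays. Both honokiol arrays lay more than 1 log2 unit above both controls, and the groups were far apart compared with their spread (8.75 ± 0.10 with honokiol and 7.46 ± 0.20 with ethanol, SD, n = 2 each). The log2 fold change was 1.29 ± 0.12 (SE; 95% interval 0.98 to 1.6; adjusted p = 0.00256). As the cultures were measured in bulk, more transcript in each cell and more cells with the transcript cannot be told apart. The rise was the 108th largest of the 5449 genes, and PCK1 was the only member that changed at least 2-fold, where 3.78% of all genes rose and 0.954% fell by that much. The call held under all 12 alternatives tried, with log2 fold changes of 1.05 to 1.43.

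FBP1 encodes fructose-1,6-bisphosphatase, the enzyme of the last detour before glucose phosphate. Its values were 6.47 and 5.75 with honokiol and 5.97 and 5.19 with ethanol. The groups overlapped: in each group replicate 1 was the higher array, by 0.71 with honokiol and 0.78 with ethanol, and these gaps were larger than the difference between the group means. The log2 fold change of 0.53 ± 0.35 (SE) had a 95% interval of -0.38 to 1.43 and did not pass (adjusted p = 0.256). With the 5′/3′ ratio of the control transcripts as a covariate the estimate was -0.15 (adjusted p = 0.729). Without ethanol replicate 1 it was 0.92 and passed (adjusted p = 0.041), while without honokiol replicate 1 it was 0.17 (adjusted p = 0.75) and without ethanol replicate 2 it was 0.14 (adjusted p = 0.709). Neither a rise of the size seen for PCK1 nor a small fall lies outside the interval.

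MDH2, the cytosolic malate dehydrogenase that supplies oxaloacetate for PCK1, went the other way. The honokiol arrays gave 11.45 and 11.40 and the ethanol arrays 12.01 and 11.91. Both honokiol values were below both controls, by more than the spread within either group. MDH2 fell by 0.54 ± 0.07 (SE) on the log2 scale (95% interval -0.71 to -0.37; adjusted p = 0.00483). The estimate changed little when an array was left out, but without honokiol replicate 1 or 2 the adjusted p was 0.0511 and 0.0562. The products of PCK1 and MDH2 act in consecutive steps, and their transcripts moved in opposite directions.

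Of the glyoxylate cycle's own enzymes, ICL1 encodes isocitrate lyase, which splits isocitrate into glyoxylate and succinate. ICL1 was at 7.75 and 7.64 on the honokiol arrays and at 7.22 and 7.23 on the ethanol arrays. All honokiol values were above all controls. The log2 fold change was 0.47 ± 0.07 (SE; 95% interval 0.29 to 0.64; adjusted p = 0.00669). It was 0.27 (adjusted p = 0.0455) after a further quantile normalization, and without honokiol replicate 1 it was 0.41 and did not pass (adjusted p = 0.0699).

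MLS1 encodes malate synthase, which joins the glyoxylate made by isocitrate lyase to acetyl-CoA. Log2 intensities of 6.71 and 6.40 with honokiol and 6.45 and 6.39 with ethanol overlapped. The log2 fold change was 0.14 ± 0.12 (SE; 95% interval -0.16 to 0.44; adjusted p = 0.361), and its sign turned under 2 alternatives. The interval takes in values down to a small fall and up to nearly the rise of ICL1.

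ADH2 and ACS1 bring ethanol and acetate into the pathway. ADH2, the alcohol dehydrogenase that oxidises ethanol, had 7.46 and 7.27 with honokiol and 7.42 and 7.39 with ethanol. The ethanol values lay between the honokiol values, and the log2 fold change was -0.04 ± 0.08 (SE; 95% interval -0.26 to 0.17; adjusted p = 0.695). A further quantile normalization gave -0.25, which passed (adjusted p = 0.0403). ACS1, the acetyl-CoA synthetase of non-fermentative growth, was at 9.29 and 9.19 with honokiol and at 9.08 and 8.93 with ethanol. The arrays did not overlap, but the nearest arrays of the 2 groups were about as close as the replicates of a group. Its log2 fold change of 0.24 ± 0.08 (SE; 95% interval 0.03 to 0.45) missed the threshold (adjusted p = 0.0655). It passed with an intensity trend and robust prior (adjusted p = 0.0482) and without ethanol replicate 1 (0.31, adjusted p = 0.0199), and with the 5′/3′ covariate it was 0.11 (adjusted p = 0.355).

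JEN1 encodes the plasma membrane permease for lactate and pyruvate. It gave 8.02 and 7.72 with honokiol, against 8.03 and 7.89 with ethanol. The groups overlapped, with a log2 fold change of -0.09 ± 0.12 (SE; 95% interval -0.40 to 0.23; adjusted p = 0.58). A change of 2-fold in either direction is outside this interval, as it is for MLS1, ADH2, ACS1 and SIP4.

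CAT8 encodes the zinc cluster activator that acts on the carbon source-responsive elements of these genes. Log2 intensity was 7.40 and 7.36 with honokiol and 7.97 and 8.35 with ethanol. The honokiol arrays were nearly equal and below both controls, and the controls differed from each other by 0.39, the higher being ethanol array 2. CAT8 fell by 0.78 ± 0.14 (SE) on the log2 scale (95% interval -1.14 to -0.43; adjusted p = 0.0112), the 123rd largest fall among the tested genes. With the 5′/3′ covariate the log2 fold change was -0.49 (adjusted p = 0.0187), and without ethanol replicate 2 it was -0.59 (adjusted p = 0.00316). Without honokiol replicate 1 or 2 it was -0.80 and -0.77 and did not pass (adjusted p = 0.0746 and 0.0757).

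SIP4 encodes a related activator that binds the same elements and whose gene is itself switched on through Cat8. It was at 6.87 and 6.66 with honokiol and at 6.76 and 6.53 with ethanol. The groups overlapped in part, and the log2 fold change was 0.12 ± 0.12 (SE; 95% interval -0.18 to 0.42; adjusted p = 0.419). On the arrays on which CAT8 fell, PCK1 and ICL1 rose, MDH2 fell, and FBP1, MLS1, ADH2, ACS1, JEN1 and SIP4 did not pass the test. A part of Cat8 in these differences was not tested.

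Among the 10 genes, 8 had a higher value on replicate 1 than on replicate 2 in both groups (all but ICL1 and CAT8), as did 32.2% of all tested genes. The median absolute difference between replicates was 0.16 with honokiol and 0.14 with ethanol for the 10 genes, and 0.06 with honokiol and 0.10 with ethanol over all genes. Replicates of these genes thus lay farther apart than those of the median gene in both groups.

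**Figure D2:**
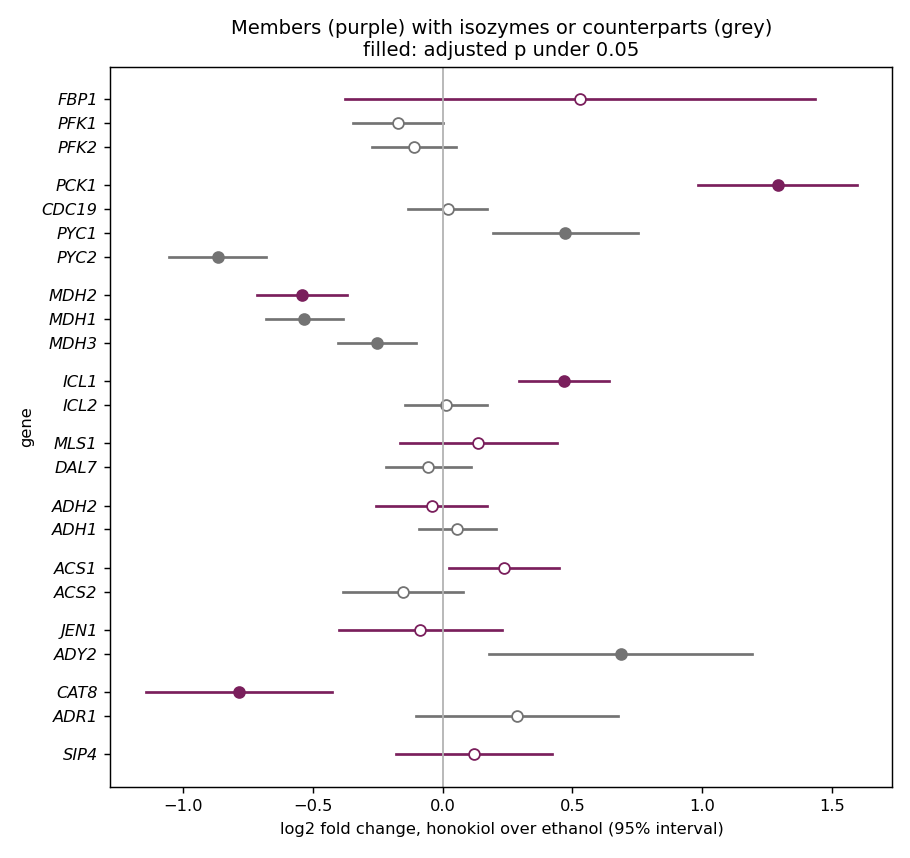
Log2 fold change of honokiol over ethanol (horizontal axis) with its 95% interval from limma for the 10 genes (purple) and, below each, its isozyme or counterpart (grey). Filled points had an adjusted p under 0.05. The 3 malate dehydrogenase genes lie left of 0, PYC1 and PYC2 lie on opposite sides, and FBP1 has the widest interval.

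The isozymes that work in glucose-grown cells or in another compartment were set beside the 10 genes. The difference between the fold changes of 2 genes was not tested. All 3 malate dehydrogenase genes fell. MDH1, of the mitochondrial enzyme, had 12.16 and 12.18 with honokiol and 12.71 and 12.70 with ethanol (log2 fold change -0.53 ± 0.06, SE; adjusted p = 0.0035). MDH3, of the peroxisomal enzyme, had 11.59 and 11.56 with honokiol and 11.84 and 11.81 with ethanol (log2 fold change -0.25 ± 0.06, SE; adjusted p = 0.0219). Both lay on the same side as MDH2, and MDH3 did not pass without either honokiol array.

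Other isozymes gave small differences. ADH1, of the main fermentative alcohol dehydrogenase, had a log2 fold change of 0.06 (adjusted p = 0.44), and ACS2, of the acetyl-CoA synthetase used in glucose, one of -0.15 (adjusted p = 0.21). For ICL2, a mitochondrial relative of ICL1 that acts on methylisocitrate, it was 0.01 (adjusted p = 0.877). DAL7, a malate synthase of allantoin breakdown, had -0.05 (adjusted p = 0.503). These 4 genes did not pass the test in any of the alternatives.

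PFK1, PFK2 and CDC19, of the glycolytic steps that oppose FBP1 and PCK1, did not pass. The log2 fold change was -0.17 for PFK1 and -0.11 for PFK2, the phosphofructokinase subunits that oppose FBP1 (adjusted p = 0.0906 and 0.198), and both passed with an intensity trend and robust prior (adjusted p = 0.0116 and 0.0335). PFK1 also passed without ethanol replicate 1 (-0.22, adjusted p = 0.0438). CDC19, the main pyruvate kinase, was at 0.02 (adjusted p = 0.8).

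Pyruvate carboxylase, which makes the oxaloacetate that PCK1 uses, is encoded by a pair of genes, and they moved apart. PYC1 was at 12.06 and 12.16 with honokiol and at 11.50 and 11.77 with ethanol, and rose by 0.47 ± 0.11 (SE) on the log2 scale (adjusted p = 0.0222). PYC2 was at 11.81 and 11.85 with honokiol and at 12.63 and 12.77 with ethanol, and fell by 0.87 ± 0.07 (SE; adjusted p = 0.00212). The arrays of the 2 groups did not overlap for either gene. The estimate for PYC1 was the less steady of the 2. With an array left out it ran from 0.34 to 0.60, and that for PYC2 from -0.93 to -0.80.

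Further members of the glyoxylate and malate routes were taken from a list of 11 genes, of which 3 rose and 4 fell (23.9% of all genes rose and 25% fell), with a median log2 fold change of 0.01. CIT2, the peroxisomal citrate synthase that feeds the cycle, had 13.42 and 13.43 with honokiol and 11.91 and 11.97 with ethanol, a 2.80-fold rise (adjusted p = 0.000818). IDP2, the cytosolic NADP-dependent isocitrate dehydrogenase, had 8.37 and 8.40 with honokiol and 7.40 and 7.39 with ethanol, a 1.99-fold rise (adjusted p = 0.00131). Both rises were many times the distance between replicates.

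Of 12 genes for entry and transfer of acetate and acetyl units 5 rose and 1 fell, which is 6 called of 12 where 48.9% of all genes were called, and the median log2 fold change was 0.11. ATO3, a membrane protein of the acetate and ammonium transporter family, rose most. It had 11.17 and 11.17 with honokiol and 9.33 and 9.01 with ethanol, a log2 fold change of 2.0 (adjusted p = 0.00131). CRC1, the mitochondrial carnitine carrier, rose 1.95-fold (adjusted p = 0.00763) and ALD6, the cytosolic aldehyde dehydrogenase that makes acetate, 1.93-fold (adjusted p = 0.00131). ADY2, the acetate transporter set beside JEN1, had 7.53 and 7.44 with honokiol and 7.08 and 6.51 with ethanol. It rose 1.61-fold (log2 fold change 0.69, adjusted p = 0.0401), but with the 5′/3′ covariate the log2 fold change was 0.23 and did not pass (adjusted p = 0.0713); without ethanol replicate 2 it was 0.40 (adjusted p = 0.0114). ACH1, which transfers CoA to acetate, fell by 0.48 in log2 units (adjusted p = 0.0137), and did not pass with the covariate (-0.45, adjusted p = 0.0599).

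Besides CAT8 and SIP4, 7 activators of genes for nonfermentable carbon were listed, of which 5 fell and 1 rose, where 25% of all genes fell and 23.9% rose. The median log2 fold change was -0.40. GSM1, a zinc cluster protein, fell by 0.68, HAP4, the regulatory subunit of the activator of respiratory genes, fell by 0.56, RDS2, an activator of PCK1 and FBP1, fell by 0.51 and PIP2, of the oleate response, fell by 0.40 (adjusted p = 0.00346, 0.00898, 0.00943 and 0.011). ERT1, a related zinc cluster protein, rose by 0.53 (adjusted p = 0.0139), or by 0.34 with the 5′/3′ covariate (adjusted p = 0.0476). ADR1, which acts with Cat8 on ADH2 and ACS1, was at 8.96 and 9.05 with honokiol and 8.51 and 8.93 with ethanol. The arrays did not overlap but ADR1 did not pass (log2 fold change 0.29, adjusted p = 0.171). It passed without ethanol replicate 2 (0.49, adjusted p = 0.00659) and with the 5′/3′ covariate (0.62, adjusted p = 0.00935).

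Of 15 genes of the Snf1 kinase and glucose repression, 3 rose and 4 fell (48.9% of all genes did either), with a median log2 fold change of -0.03. The rises included MIG2 and MIG3, of repressors related to Mig1, while MIG1 itself did not pass (log2 fold change 0.0075, adjusted p = 0.956). MIG3 had 8.73 and 8.61 with honokiol and 7.41 and 7.17 with ethanol, a 2.6-fold rise (adjusted p = 0.00181). MIG2 had 9.83 and 9.93 with honokiol and 8.87 and 8.77 with ethanol, a 2.08-fold rise (adjusted p = 0.00153). TOS3, a kinase that activates Snf1, rose 1.6-fold (adjusted p = 0.00216). SIP2, a subunit of the Snf1 complex, fell by 0.51 and REG2, a regulatory subunit of the phosphatase Glc7, fell by 0.43 (adjusted p = 0.00831 and 0.00983).

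The GID ubiquitin ligase, which targets Fbp1, Pck1, Icl1 and Mdh2 for degradation in glucose, had 8 listed genes, of which 1 rose and 4 fell (23.9% and 25% of all genes), with a median log2 fold change of -0.30. The rise was that of VID24, the subunit that recognises these substrates, with 10.78 and 10.79 with honokiol and 10.53 and 10.44 with ethanol (log2 fold change 0.30, adjusted p = 0.018). With the 5′/3′ covariate VID24 did not pass (0.23, adjusted p = 0.076). The scaffold genes VID30 and VID28 fell by 0.84 and 0.71, FYV10 fell by 0.50 and GID8 fell by 0.29 (adjusted p = 0.0348, 0.0142, 0.00586 and 0.0212). With the covariate VID30 was at -0.31 and VID28 at -0.41 (adjusted p = 0.0379 and 0.0247), and without ethanol replicate 2 VID30 was at -0.50 (adjusted p = 0.00552). For VID30 and VID28 ethanol array 2 was the highest of the 4 arrays, as it was for CAT8.

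**Figure D3:**
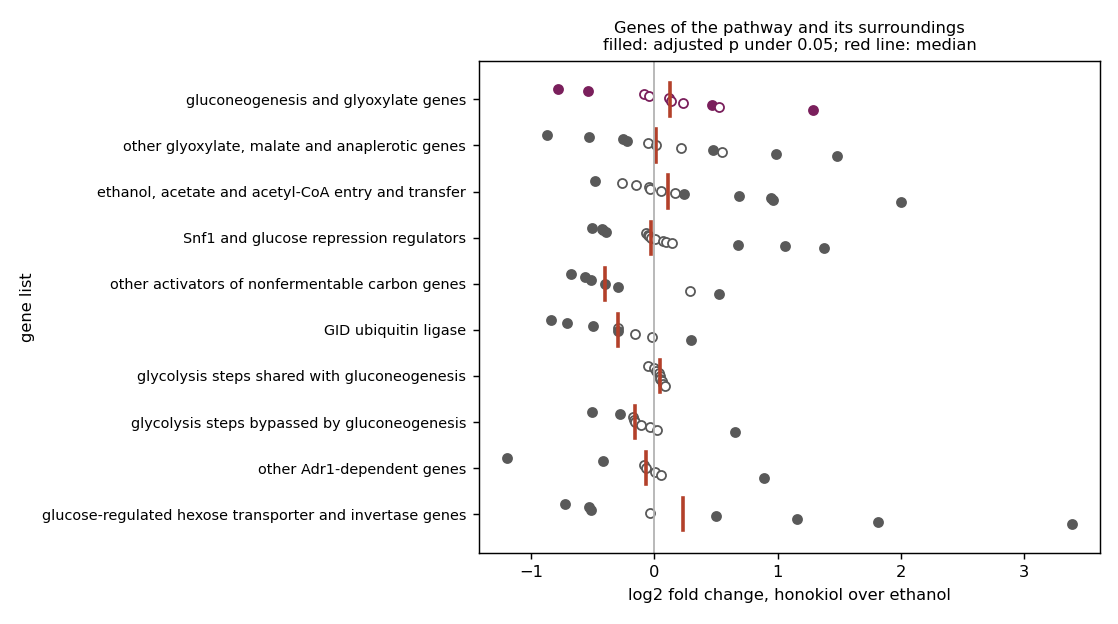
Log2 fold change of honokiol over ethanol (horizontal axis) for the 10 genes (top, purple) and for 9 lists of neighbouring genes of the pathway (grey), 1 point a gene. Filled points had an adjusted p under 0.05, and red lines are list medians. Glycolysis genes shared with gluconeogenesis lie closest to 0 (-0.05 to 0.09), and HXT1 is farthest to the right (3.39).

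None of the 9 measured genes for the reversible steps shared by glycolysis and gluconeogenesis passed limma's test, where 48.9% of all genes passed. Of these 9, 0 had an unadjusted p under 0.05. Their log2 fold changes ran from -0.05 to 0.09, and 1 of them passed with an intensity trend and robust prior. These transcripts were bright (13.68 to 14.46), and 14.46 was the highest value of any tested gene. ADH1 and CDC19 were also near the top, at 14.17 to 14.24. Whether fold changes are compressed at this brightness was not tested. Of the 9 genes at steps that gluconeogenesis goes around, 1 rose and 2 fell (23.9% and 25% of all genes), with a median of -0.16. PFK27, which makes the inhibitor of fructose-1,6-bisphosphatase, rose by 0.65 in log2 units (adjusted p = 0.00617), and FBP26, which removes it, fell by 0.50 (adjusted p = 0.00378). HXK1 fell by 0.28 (adjusted p = 0.0177), and with the 5′/3′ covariate it was at -0.24 and did not pass (adjusted p = 0.0692).

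Of 7 other genes that depend on Adr1, 1 rose and 2 fell (23.9% and 25% of all genes), with a median log2 fold change of -0.06. POT1, the peroxisomal thiolase, had 6.04 and 5.78 with honokiol and 7.12 and 7.09 with ethanol and fell by 1.19 (adjusted p = 0.00223), and GUT2, of glycerol use, fell by 0.41 (adjusted p = 0.008). CTA1, the peroxisomal catalase, rose 1.85-fold (log2 fold change 0.89, adjusted p = 0.0386), but its log2 fold change was 0.33 with the 5′/3′ covariate (adjusted p = 0.129) and 0.55 without ethanol replicate 2 (adjusted p = 0.0285). Among 8 hexose transporter and invertase genes that respond to the glucose level, 4 rose and 3 fell (median 0.23), where 23.9% of all genes rose and 25% fell. The rises were those of HXT1 (10.5-fold, adjusted p = 0.000669), HXT2 (3.52-fold, adjusted p = 0.000672), HXT3 (2.23-fold, adjusted p = 0.00103) and STD1 (1.42-fold, adjusted p = 0.00505). HXT7 fell by 0.72, MTH1, a corepressor of HXT genes, by 0.53 and HXT4 by 0.51 (adjusted p = 0.00377, 0.00479 and 0.014). SUC2 did not pass (log2 fold change -0.03, adjusted p = 0.777). The mark on the HXT7 probe set says that it can bind several transcripts, and HXT6 is a near-identical gene.

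Over the 9 lists together, 19 of 86 genes rose and 25 fell, where 23.9% of all genes rose and 25% fell. Without honokiol replicate 1, 17 of these 44 calls held in the same direction, and without honokiol replicate 2, 16 did. With the 5′/3′ covariate 35 of the 44 held. Of the 37 called list genes followed here (those named above but STD1 and HXT4), most were lost without honokiol replicate 1, and most without honokiol replicate 2. CIT2, IDP2, PYC2, MDH1, ATO3, ALD6, MIG2, MIG3, TOS3, GSM1, POT1, HXT1, HXT2, HXT3 and HXT7 passed without either. SIP2 was lost only without honokiol replicate 1 and ACH1 only without honokiol replicate 2.

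The 10 genes lie on 8 chromosomes in the S. cerevisiae R64 gene table. Of 19 measured genes next to them, 4 rose and 4 fell, so 8 of 19 is near the 48.9% called over all genes. SIP4's neighbour ARG3, of arginine synthesis, rose by 1.12 in log2 units (adjusted p = 0.0017), while PCK1's neighbours ESL2 and UBP11 had log2 fold changes of -0.15 and 0.24 (adjusted p = 0.232 and 0.0281). Both neighbours of ADH2, YME2 and UBP15, fell by 0.54 and 0.63 (adjusted p = 0.0147 and 0.0224), where ADH2 was at -0.04. These 5 neighbours were chosen after their values were seen.

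**Figure D4:**
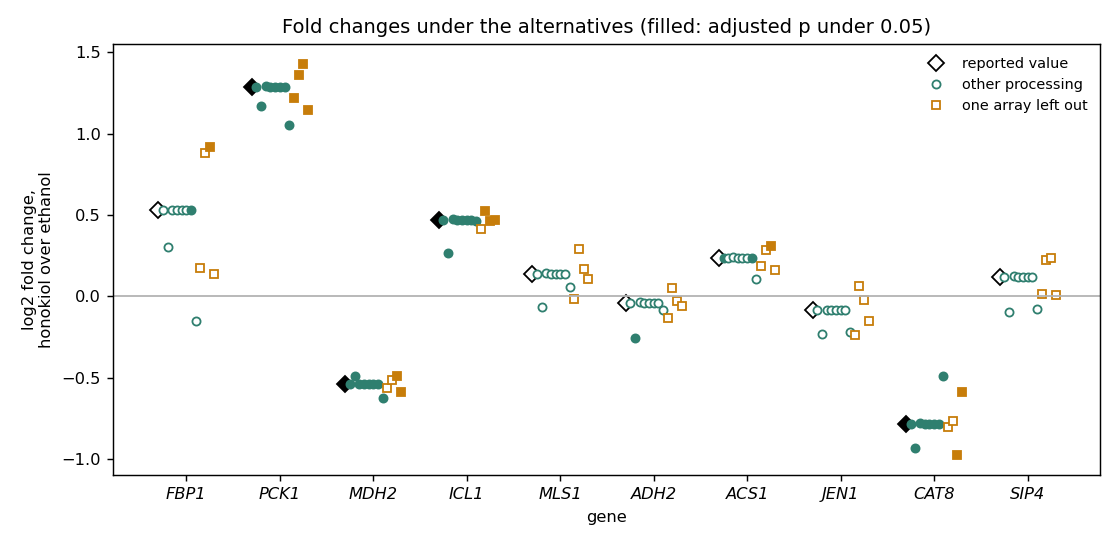
Log2 fold change of honokiol over ethanol (vertical axis) of the 10 genes as reported (black diamonds) and under 12 alternatives, with 1 array left out (orange squares) or other processing (green circles). Filled symbols had an adjusted p under 0.05. PCK1 is filled throughout (1.05 to 1.43), while FBP1 runs from -0.15 to 0.92.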

How the data were processed

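Biotin-labelled cRNA was hybridised to 4 Affymetrix arrays. The deposited intensity values are linear and come from RMA, according to the submitters' processing notes (version not given in the sources used here), which corrects background, normalizes by quantiles and summarises each probe set; log2 was taken before the fit, with no pseudocount. Of 10928 probe sets, 5498 named 1 S. cerevisiae gene through the platform annotation and the R64 gene table, giving 5449 genes (the brightest probe set each; 47 genes had several). Background (log2 4.37) is the 95th percentile of the means of 1746 probe sets for genes outside that table. Chromosomes and neighbouring genes were read from the positions in the R64 gene table, and no sequence was used.

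Honokiol was set against ethanol with limma 3.58.1 (lmFit, eBayes; R 4.3.3), two-sided, Benjamini-Hochberg adjusted over 5449 genes, threshold 0.05, with 2 residual and 2.76 prior degrees of freedom. The script was tested on simulated data. The 2 arrays a group limit the precision. An exact permutation test of 2 against 2 cannot go below p = 0.333 and was not used. Members and lists were chosen with earlier results of these data known. Named were all members, their isozymes or counterparts, up to 5 called genes with the largest change in each list, and strain genes. MIG1, STD1, HXT4 and SUC2 were named in addition. TDH2 and HXT6 were not analysed here. No set test was made.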

Additional observations from a re-analysis of the deposited data

How the results depend on the processing

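The fit was repeated in 12 ways: with an intensity trend and robust prior, another quantile normalization, median centring, leaving out dim genes, all S. cerevisiae probe sets as features, means of probe sets, the replicate number as a block, the 5′/3′ ratio as a covariate, and leaving out each array. Of the 10 member genes, 2 were higher, 4 with the replicate block and 1 to 4 with an array left out; 2 were lower, and 0 to 2 with an array left out. Of the list genes 19 were higher (10 to 21 with an array left out) and 25 lower (6 to 26). Over all genes, 1302 higher and 1361 lower became 439 and 269 without honokiol replicate 1, and 441 and 264 without honokiol replicate 2; the spread then comes from the ethanol pair alone, whose replicate differences had an SD of 0.209, against 0.121 for honokiol.

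The labels do not say that a replicate number marks a shared batch. The differences between replicates 1 and 2 correlated at 0.33 over genes between the honokiol and the ethanol pair, and with the replicate block FBP1 (adjusted p = 0.00647) and ACS1 (adjusted p = 0.0375) passed.

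The direction of several genes that had not passed turned. With another quantile normalization MLS1 was at -0.067, SIP4 at -0.095 and CDC19 at -0.025. With the 5′/3′ covariate FBP1 was at -0.15, SIP4 at -0.079 and DAL7 at 0.0036. With an array left out, MLS1 ran from -0.015 to 0.29, ADH2 from -0.13 to 0.050, JEN1 from -0.24 to 0.064, ICL2 from -0.013 to 0.037 and CDC19 from -0.0042 to 0.043. The cause was not tested. PCK1 passed in all 12 alternatives, ICL1 in 11, MDH2 and CAT8 in 10, all in the direction reported.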
